A study of Arabidopsis thaliana with 134 samples.

Results

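The 10 alpha-expansins described here are EXPA1, EXPA3, EXPA4, EXPA5, EXPA6, EXPA8, EXPA9, EXPA10, EXPA11 and EXPA15 of Arabidopsis thaliana. They were taken by gene identifier from a table of 28775 genes, and all 10 stood among the 18111 genes with a mean of at least 1 TPM (transcript abundance scaled by transcript length and library total) that were tested. Expansins are secreted proteins that loosen the plant cell wall at acidic pH without cutting its polymers, probably by freeing contacts between cellulose and xyloglucan, so that turgor can enlarge the cell. Plants hold several families of them, of which the alpha-expansins are the largest. Members differ in the organ and the time at which they are transcribed, and hormones and light are known to act on many of them.

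The RNA came from whole seedlings of the accession Tnz-1, of the accession Ws-2 and of 65 recombinant inbred lines (RILs), inbred descendants of a cross between these accessions in which segments of either parent are fixed. All seedlings had been grown for 12 days at 22 °C on sucrose medium in short days of 8 h light and 16 h dark, and were harvested at ZT 10 h, that is 10 h after lights-on. The plants of the extended-light group were kept in the light for the last 2 h before harvest, and those of the dark group had been in the dark since ZT 8 h. Each line and each parent gave 1 poly(A) library per condition, hence 65 RIL libraries in extended light, 65 RIL libraries in the dark and 4 parental libraries. The light plants stood in one cabinet and the dark plants in the other, so light and cabinet cannot be told apart in any value below. About 50 seeds were sown per cluster, and nothing in the labels says how many plants entered a library.

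Read totals cannot be had from TPM, and the depth behind each value is unknown. Between 7999 and 10459 genes were listed at 0 in a light RIL library, against 8017 to 10268 in a dark one. The labelled tissue held both organs. The summed level of the 2 shoot markers CAB3 and RBCS1A had a median of 24840 TPM in light and 23956 TPM in the dark, and that of the 3 root markers PIP2-4, RHD2 and PRX44 had a median of 35.7 TPM in light and 46.4 TPM in the dark. The 3 seed storage genes CRU2, SESA3 and OLEO1 summed to between 0.27 and 1383 TPM in light and between 0.77 and 2585 TPM in the dark. None of these 8 markers was at 0 in every library of either group, and of them PRX44 (log2 change -0.42), CAB3 (-0.37) and RBCS1A (0.07) passed the test for light described below. Their part in the results was not tested. In whole seedlings, fewer cells of a type and less RNA per cell cannot be told apart.

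The members lie apart in the genome. In the RefSeq annotation of TAIR10.1, which is the genome of the accession Columbia and not of Tnz-1 or Ws-2, EXPA10 (AT1G26770) occupies chr1:9259432-9261313 on the forward strand and EXPA1 (AT1G69530) chr1:26141726-26143538 on the same strand. EXPA11 (AT1G20190) is at chr1:6998335-6999839 on the reverse strand. Chromosome 2 carries 5 members, all on the reverse strand: EXPA15 (AT2G03090) at chr2:916806-918671, EXPA6 (AT2G28950) at chr2:12431338-12433796, EXPA3 (AT2G37640) at chr2:15787523-15790139, EXPA4 (AT2G39700) at chr2:16543832-16545746 and EXPA8 (AT2G40610) at chr2:16948791-16950705. EXPA5 (AT3G29030) is at chr3:11011262-11013451 on the reverse strand and EXPA9 (AT5G02260) at chr5:463073-465273 on the forward strand. Every member is a short gene of 3 or 4 exons with a coding sequence of 759 to 828 bases.

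The coding sequences are alike but not identical, which bears on how short reads can be assigned to them. Over all 34 expansin genes compared, the closest relative of a member had between 65.7% (EXPA11 with EXPA17) and 81.1% (EXPA4 with EXPA16) identical bases. EXPA1 and EXPA10 are each other's closest relative, with 78.7% identity over 750 aligned bases. Their longest stretch without a difference is 32 bases, at position 103 of the EXPA1 and position 130 of the EXPA10 coding sequence, and it is shown because nothing inside it tells the genes apart:

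EXPA1: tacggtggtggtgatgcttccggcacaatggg

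EXPA15 and EXPA10 share a stretch of 33 bases at 75.3% identity. How reads that fit several genes were shared out is not given in the sources used here, so part of the level of one such gene may belong to its relative.

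The 250 bases upstream of each annotated start were searched on both strands for 5 short motifs. CACGTG is the palindromic G-box found in many light-regulated genes, TGTCTC is a site linked to auxin, and AAAATATCT is the evening element of clock-regulated genes. CACATG, a near variant of the G-box, was searched as well, and so was CGTGTG. The upstream windows of EXPA10 and EXPA1 are shown because EXPA10 had the largest change of the 10, EXPA1 is its closest relative, and both hold the same 8-base palindrome, in which CACATG overlaps its own reverse complement. Capitals mark the motif matches, and both windows run in the direction of transcription, at chr1:9259182-9259431 for EXPA10 and at chr1:26141476-26141725 for EXPA1:

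EXPA10: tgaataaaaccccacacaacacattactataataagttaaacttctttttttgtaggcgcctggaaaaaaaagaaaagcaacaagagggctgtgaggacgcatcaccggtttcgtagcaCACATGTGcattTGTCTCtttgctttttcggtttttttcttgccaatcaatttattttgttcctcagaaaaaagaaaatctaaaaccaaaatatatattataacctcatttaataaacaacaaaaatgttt

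EXPA1: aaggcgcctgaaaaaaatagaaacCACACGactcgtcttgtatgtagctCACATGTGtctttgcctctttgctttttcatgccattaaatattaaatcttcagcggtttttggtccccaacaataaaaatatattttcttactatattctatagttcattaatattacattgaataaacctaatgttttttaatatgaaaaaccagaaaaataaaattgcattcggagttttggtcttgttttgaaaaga

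The palindrome CACATGTG begins 131 bases before the EXPA10 start and 201 bases before the EXPA1 start, and it was singled out after the windows had been seen. Of 26709 promoters of the same length, 0.382% held it. The longest run of letters that both windows share, ctctttgctttttc, is 14 bases long and is the longest among all 45 pairs of members, whose median was 9 bases. The motif CACATG was present in 3 of 10 members (EXPA1, EXPA10 and EXPA11), against 11.2% of all promoters. TGTCTC was present in 3 of 10 (EXPA5, EXPA6 and EXPA10), against 10.9%, and CGTGTG in 2 of 10 (EXPA1 and EXPA6), against 5.37%. The G-box and the evening element were in none of the 10 windows, against 6.58% and 2.40% of all promoters. A match is a string of letters in the Columbia genome, not a shown binding site.

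To ask how the transcripts of the 10 genes changed with 2 h of extended light, the 65 light and 65 dark RIL libraries were compared on the scale of log2(TPM + 1) with limma, and p-values were adjusted by the Benjamini-Hochberg method over all 18111 genes. At an adjusted p under 0.05, 7 members rose, EXPA8 fell, and 2 did not pass, where 36.1% of all genes tested rose and 25.5% fell, 61.6% in all. Of the 7, EXPA10, EXPA15 and EXPA3 also reached an absolute log2 change of 1, as did 2.66% of all genes tested in that direction and 5.48% in either. The median change of the 10 members was 0.77, beside 0.05 over all genes tested. The 10 were chosen with earlier results of these data known, so these counts and this median describe them and not the family. The alpha-expansins tested outside the 10, given further on, went both ways.

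EXPA10, which is known to promote the growth of leaves, had the largest change of the 10. Its level in extended light was 90.2 TPM in the lowest, 229 TPM in the median and 803 TPM in the highest of the 65 libraries, against 9.82, 21.6 and 76.4 TPM in the dark. Every light library stood above every dark library, a separation seen in 0.95% of all genes tested. The gene was 10.4-fold higher in light in the median line, where the fitted difference on the log2 scale was 3.27 (SE 0.119, adjusted p 6.18e-54, limma), and it was higher in 65 of 65 lines.

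The change of EXPA10 within a line ran from 0.30 in line 48 to 5.07 in line 15 on the log2 scale. Line 48 had 94.6 TPM in light, close to the lowest light value, and 76.4 TPM in the dark, the highest dark value. Its dark library was also the highest of all dark libraries for EXPA1, EXPA6, EXPA11 and EXPA15. Without line 48 the change of EXPA10 was 3.31, and no call of a member changed.

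EXPA15 and EXPA3 were the other members that were higher in light in all 65 lines, as were 3.87% of all genes tested. EXPA15 had 3.69 TPM in the lowest, 17.75 TPM in the median and 33.85 TPM in the highest light library, against 2.43, 5.82 and 22.5 TPM in the dark, and rose by 1.35 (SE 0.0945, adjusted p 3.75e-27, limma). Its groups overlapped, with 14 light libraries above the highest dark one. EXPA3 had 76.95 TPM in the lowest, 132 TPM in the median and 225 TPM in the highest light library, against 33.5, 60.4 and 124 TPM in the dark, and rose by 1.02 (SE 0.0721, adjusted p 4.96e-27, limma). In this gene 37 light libraries stood above every dark one. Its change lay at the threshold of 1 and came to 0.98 when the libraries were scaled by median-of-ratios factors instead of used as deposited.

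The other members that rose did so by less than 1 on the log2 scale, with wide overlap between the groups. EXPA1, known from guard cells, where it takes part in stomatal opening, had 19.3, 58.4 and 155 TPM (lowest, median, highest) in light, against 10.6, 30.5 and 93.1 TPM in the dark, a change of 0.86 (SE 0.112, adjusted p 1.5e-11, limma) that was positive in 61 lines. EXPA4 had a median of 14.7 TPM in light and 7.74 TPM in the dark and rose by 0.73, with higher values in light in 58 lines. EXPA11 had a median of 18.9 TPM in light and 14.2 TPM in the dark and rose by 0.41, with higher values in light in 54 lines. EXPA5, a gene known for its part in organ growth, had 2.02, 9.90 and 37.15 TPM in light, against 0.92, 5.68 and 39.03 TPM in the dark, and its change of 0.59 (SE 0.139, adjusted p 9.43e-05, limma) was positive in only 50 of 65 lines.

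EXPA8 was the one member that fell. It had 35.65, 70.6 and 142 TPM (lowest, median, highest) in light, against 38.98, 99.5 and 184 TPM in the dark, a change of -0.47 (SE 0.0742, adjusted p 1.28e-08, limma), and it was lower in light in 57 of 65 lines. The change of EXPA8 in lines 58 to 78 was -0.26, with 5 of 16 lines higher in light. Fitted alone with treatment as the only term, this range did not pass (adjusted p 0.123, limma). EXPA9 had 2.92, 9.20 and 20.2 TPM in light, against 5.34, 11.03 and 23.6 TPM in the dark. Its change of -0.17 (SE 0.0826, adjusted p 0.0720, limma) did not pass, although 43 lines were lower in light. With the line as a block, which compares the libraries of the same inbred line, EXPA9 passed at an adjusted p of 0.00687, and all 10 members passed, where 76.8% of all genes did. Under median-of-ratios scaling the change of EXPA9 was -0.20 and passed as well (adjusted p 0.0222, limma).

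EXPA6 was the other member that did not pass, with a change of 0.82 (SE 0.384, adjusted p 0.0553, limma), and it is a case of its own because the lines fell into separate classes. It was higher in light in 50 lines, lower in 4 and equal in 11, and with the line as a block the same change had an adjusted p of 1.34e-14. The classes are described further on.

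**Figure D1:**
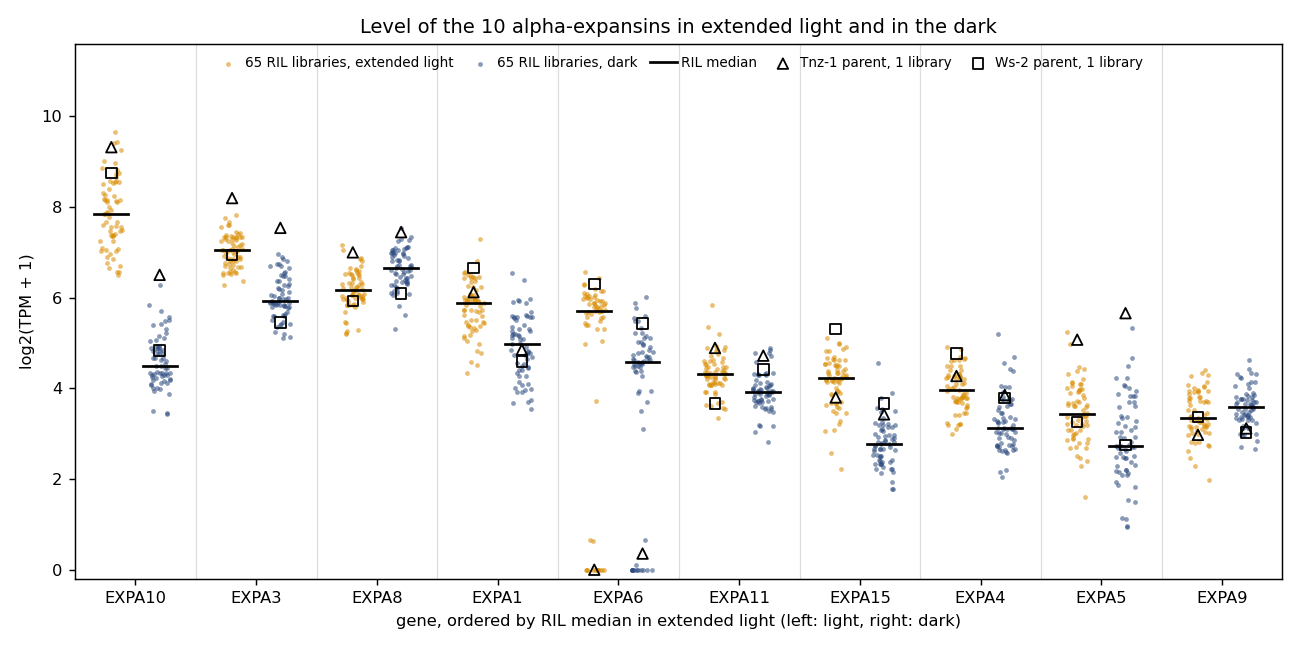
Level of each alpha-expansin as log2(TPM + 1) in the 65 RIL libraries of extended light (orange, left) and the dark (blue, right), with the RIL median as a black bar and the single library of Tnz-1 (triangle) and of Ws-2 (square) per condition. EXPA10 is the member whose groups do not overlap, with 90.2 TPM in the lowest light library and 76.4 TPM in the highest dark one, and EXPA6 shows a class of lines at or near 0.

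Because TPM is scaled by transcript length, levels can be set side by side between genes. In extended light the order of the median TPM was EXPA10, EXPA3, EXPA8, EXPA1, EXPA6, EXPA11, EXPA15, EXPA4, EXPA5 and EXPA9. Of these neighbours only EXPA3 and EXPA8 differed by more than the spread between lines, by 0.87 ± 0.36 on the log2 scale within a library (mean ± SD, n = 65). In the dark the order was EXPA8, EXPA3, EXPA1, EXPA6, EXPA10, EXPA11, EXPA9, EXPA4, EXPA15 and EXPA5. There the neighbours EXPA8 and EXPA3 (0.63 ± 0.42), EXPA3 and EXPA1 (1.09 ± 0.64), and EXPA10 and EXPA11 (0.68 ± 0.63) differed beyond their spread (n = 65 each).

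The most abundant of the 10 transcripts was a different one in the light and in the dark. EXPA10 was the highest member in 56 of 65 light libraries and EXPA3 in the other 9, whereas EXPA8 was the highest in 59 of 65 dark libraries and EXPA3 in the other 6. EXPA10 made up 38.7% ± 13.3 of the summed TPM of the 10 members in light and 8.40% ± 2.83 in the dark (SD, n = 65 each). EXPA8 made up 11.9% ± 4.12 in light and 34.4% ± 6.0 in the dark (SD, n = 65 each). EXPA3 kept about the same share, with 21.3% ± 5.83 in light and 22.2% ± 4.07 in the dark (SD, n = 65 each). Since shares sum to a whole, the rise of one member lowers the share of all others.

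The summed level of the 10 members had a median of 634 TPM in light (range 394 to 1180.2) and 298 TPM in the dark (range 176 to 585). The sum was higher in light in 64 of 65 lines, and the ratio of light to dark had a median of 2.18. Line 48 was the exception, with a ratio of 0.918.

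**Figure D2:**
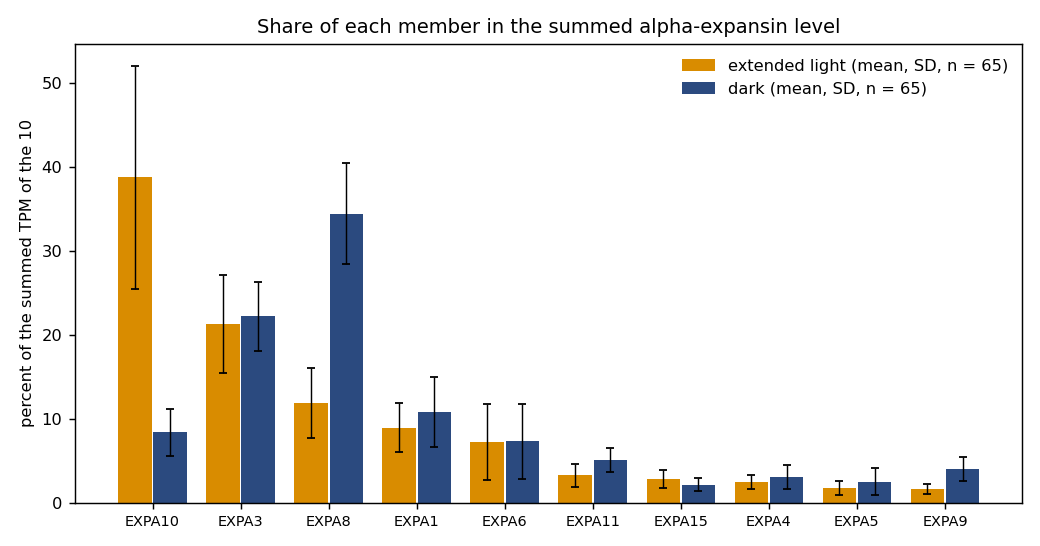
Share of each member in the summed TPM of the 10 alpha-expansins, in percent, in extended light (orange, left) and in the dark (blue, right); bars are means and whiskers the SD over 65 RIL libraries. EXPA10 holds 38.7% in light and 8.40% in the dark, and EXPA8 holds 11.9% in light and 34.4% in the dark.

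The lines carry numbers, and libraries of neighbouring numbers may have been handled together, which the labels do not state. The light effect was therefore taken also within 4 ranges of line numbers, 1 to 19 (17 lines) and 21 to 39, 40 to 57 and 58 to 78 (16 lines each). A light-by-range interaction, added after the values had been seen, passed for 2 of the 10 members, EXPA5 and EXPA10, and for 5.33% of all genes tested. With the line as a block it passed for 6 members, EXPA1, EXPA4, EXPA5, EXPA6, EXPA8 and EXPA10, and for 25.9% of all genes.

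EXPA5 was the member whose direction depended on the range. Its mean change was 1.69 ± 0.80 in lines 1 to 19 (SD, n = 17), where 17 of 17 lines were higher in light, and 0.27 ± 0.41 in lines 21 to 39 (SD, n = 16). In lines 40 to 57 it was -0.58 ± 0.67 (SD, n = 16), with 4 of 16 lines higher in light, and in lines 58 to 78 it was 0.92 ± 0.45 (SD, n = 16), with 16 of 16 lines higher in light. The interaction had an adjusted p of 2.92e-08 (limma, moderated F-test). Both conditions contributed: the medians were 11.8, 13.8, 6.17 and 8.68 TPM in light and 3.38, 12.6, 9.38 and 4.67 TPM in the dark, in the order of the ranges. Fitted alone and without the line as a block, the second and the third range did not pass for EXPA5 (adjusted p 0.337 and 0.0587, limma). A fit of single ranges that compares the libraries of the same line was not run, so these p-values leave the pairing unused. The pooled rise of this gene rests mainly on the first and the last range.

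EXPA10 rose in every range, by different amounts. Its mean change was 3.78, 2.79, 2.77 and 3.69 in the order of the ranges (interaction adjusted p 0.0181, limma). EXPA15 and EXPA3 kept a like change in all 4 ranges, from 1.23 to 1.43 for EXPA15 and from 0.92 to 1.12 for EXPA3, and their interaction did not pass with or without the block. In lines 40 to 57 alone, 4 of the 10 members passed: EXPA10, EXPA15 and EXPA3 rose and EXPA8 fell. In the same fit 5871 of the 18111 genes tested passed.

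**Figure D3:**
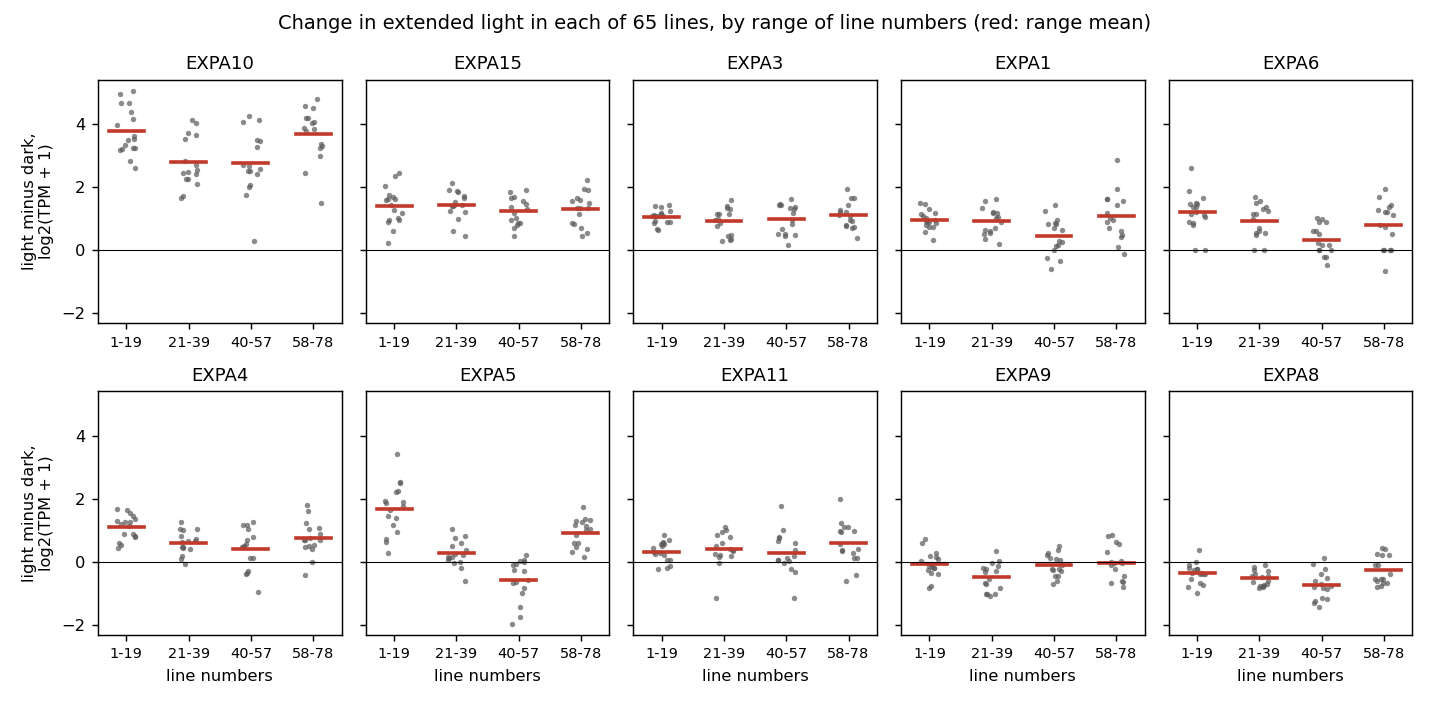
Light minus dark change on the log2(TPM + 1) scale of each of the 65 lines (points), for each member, by range of line numbers, with the range mean in red. EXPA5 has its mean above 0 in 3 ranges and at -0.58 in lines 40 to 57, whereas EXPA15 and EXPA3 lie above 0 in every line.

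EXPA6 parted the lines. In 14 lines it was at 0.57 TPM or less in light and at 0.58 TPM or less in the dark, and 11 of these lines were listed at 0 in both libraries. In the other 51 lines it had 12.2, 55.9 and 94.3 TPM (lowest, median, highest) in light, against 7.57, 24.8 and 64.3 TPM in the dark. No line lay between the classes, and each line fell in the same class in both of its libraries. Such a gap, of at least 0.2 of the range of log2 values with at least 6 lines on each side, was present in 8.24% of all genes tested and in 1 of the 10 members. The lower class held 2, 3, 4 and 5 lines in the 4 ranges of line numbers.

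The classes followed the parents. Tnz-1 had EXPA6 listed at 0 in light and at 0.28 TPM in the dark, and Ws-2 had 77.98 TPM in light and 42.26 TPM in the dark. The parental origin of the region was read from the nearest marker genes on either side, AT2G28930 at 7.04 kb and AT2G30530 at 578 kb. Such genes differed by at least 3 on the log2 scale between the parents in both conditions. They also had a mean of at least 1 TPM over the RIL libraries. Only genes for which a line's libraries were called alike in at least 0.95 of the lines were kept. Of the 14 lower lines, 10 were like Tnz-1 at both neighbours, 0 were like Ws-2 at both and 4 were mixed or unclear. Of the 51 higher lines, 0 were like Tnz-1 at both, 46 were like Ws-2 at both and 5 were mixed or unclear. These neighbours were read from expression and not from genotypes, and how well reads of either parent fit the sequences used for quantification was not tested.

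Within the 51 higher lines, EXPA6 was higher in light in 48, by 1.04 ± 0.58 on the log2 scale (SD, n = 51). That is larger than the 0.82 over all 65 lines, in which the lines near 0 take part. As a class picked by its level, these lines are described without a test of the light effect.

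To ask how far a line kept its level across both conditions, a term for the line was tested beside that for the treatment. At an adjusted p under 0.05 (limma, moderated F-test), 7 of the 10 members passed, where 83.9% of all genes tested did. The size was taken as the intraclass correlation (ICC) of a line's libraries, which is 1 where they deviate alike from the group means and about 0 where they do not. The median ICC of the members was 0.52, beside 0.49 over all genes tested. EXPA6, the member with parted lines, had an ICC of 0.95. EXPA1 (0.59), EXPA15 (0.57), EXPA3 (0.56), EXPA8 (0.54), EXPA9 (0.51) and EXPA4 (0.48) lay close together.

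EXPA5, EXPA10 and EXPA11 did not pass. EXPA10 had an ICC of -0.000564 (adjusted p 0.424, limma), so no agreement between a line's light and dark values was detectable for the member with the largest light change. EXPA11 had 0.14 (adjusted p 0.106), and passed with an ICC of 0.21 under median-of-ratios scaling (adjusted p 0.0377). EXPA5 had 0.16 (adjusted p 0.0719), and 0.51 (adjusted p 6.87e-06) when deviations were taken within the ranges of line numbers.

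The correlation of the light with the dark value over the 65 lines gave the same picture for the 9 members whose lines were not parted. It was positive at an adjusted p under 0.05 in 6 of 9 (two-sided permutation test of 100000 resamples, Benjamini-Hochberg over all 18111 genes), as in 78.2% of the 16618 genes without parted lines. Centred within the ranges of line numbers, it was so in 7 of 9, as in 77.3% of those genes. Pearson's r was 0.604 for EXPA1, 0.575 for EXPA3, 0.572 for EXPA15, 0.535 for EXPA8, 0.522 for EXPA9 and 0.501 for EXPA4, each with a permutation p of 1e-05, the smallest that 100000 resamples can give, and an adjusted p of 2.16e-05. Spearman's rho of these 6 ran from 0.492 to 0.607, with permutation p from 1e-05 to 3e-05 and adjusted p of at most 6.4e-05. Without the 2 lines farthest from the median dark value, r of the 6 was between 0.490 and 0.625, and within the 4 ranges it ran from 0.223 (EXPA9, lines 58 to 78) to 0.858 (EXPA1, lines 1 to 19).

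For EXPA10, r was -0.000591 (permutation p 0.996, adjusted p 0.997) and rho 0.00817 (permutation p 0.948, adjusted p 0.953), with r between -0.0709 and 0.220 in single ranges and 0.0902 without the 2 farthest lines. EXPA11 had r of 0.140 (permutation p 0.264, adjusted p 0.292) and rho of 0.212 (permutation p 0.0903, adjusted p 0.108). EXPA5 had r of 0.171 (permutation p 0.171, adjusted p 0.195) and rho of 0.193 (permutation p 0.121, adjusted p 0.142) over all lines. After the same centring, EXPA5 had r of 0.513 (permutation p 2e-05, adjusted p 4.19e-05) and rho of 0.532 (permutation p 2e-05, adjusted p 4.48e-05). In single ranges its r was 0.288 in lines 1 to 19, 0.786 in lines 21 to 39, 0.526 in lines 40 to 57 and 0.546 in lines 58 to 78. For EXPA6 no value over all lines is given. Within its 51 higher lines, a class picked by its level and so described without a test, r was 0.370 and rho 0.182, with r of 0.417 without the 2 farthest lines.

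**Figure D4:**
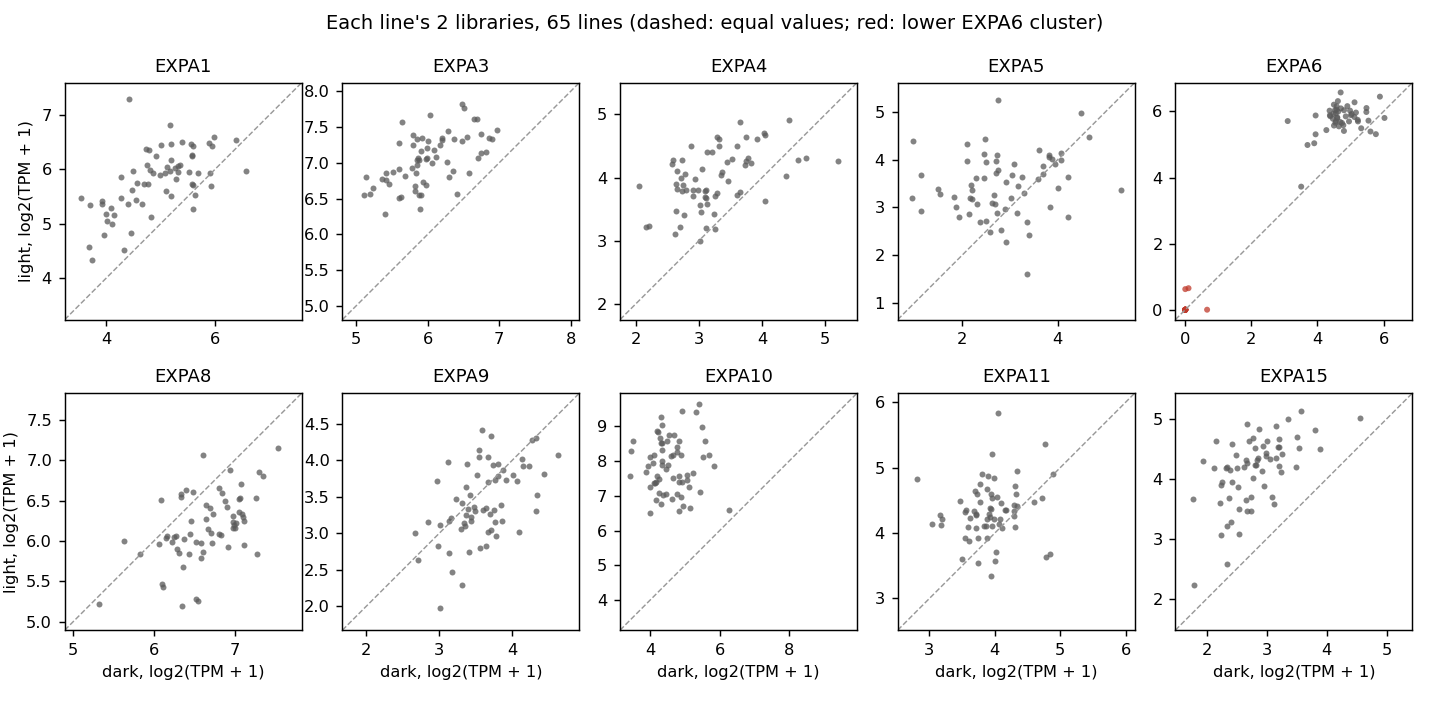
Light against dark level of each line as log2(TPM + 1), 1 point per line and 65 lines per member, with equal values dashed. Points of EXPA10 lie far above the dashed line without a slope (r = -0.000591), those of EXPA1 rise along it (r = 0.604), and the 14 lines of the lower EXPA6 class (red) sit near the origin.

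Whether lines differed more from each other in light than in the dark was asked from the absolute deviation of a library from the median of its group. No member passed at an adjusted p under 0.05 (limma), where 1.79% of all genes tested did, and 2 members had an unadjusted p under 0.05, where 12.4% of all genes did. EXPA10 was the nearest, with a mean deviation of 0.65 in light and 0.45 in the dark on the log2 scale (unadjusted p 0.00677, adjusted p 0.155). EXPA5 went the other way, with 0.52 in light and 0.72 in the dark (unadjusted p 0.0234, adjusted p 0.287). The median difference over the members was -0.00189, and that over all genes tested was -0.00501. With the line as a block, 0 members passed as well, where 6.97% of all genes did, and EXPA10 had an adjusted p of 0.0550.

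The parental origin of the region around the other members was read from neighbours in the same way, and the lines alike at both neighbours were set side by side as a description. The mean of a line's light and dark values was lower in the Tnz-1-like than in the Ws-2-like lines for EXPA1, with 4.89 ± 0.54 (n = 19) and 5.66 ± 0.40 (n = 36) on the log2(TPM + 1) scale (SD). For EXPA15 it was 2.89 ± 0.43 in the Tnz-1-like lines (n = 9) and 3.55 ± 0.43 in the Ws-2-like lines (n = 54), and for EXPA9 it was 3.29 ± 0.36 (n = 31) and 3.77 ± 0.34 (n = 26). EXPA3 went the other way, with 6.72 ± 0.29 in the Tnz-1-like lines (n = 17) and 6.46 ± 0.37 in the Ws-2-like lines (n = 38). All of these ranges overlapped. EXPA5 had 2.33 ± 0.38 in only 4 Tnz-1-like lines and 3.25 ± 0.58 in 55 Ws-2-like lines. For EXPA4, EXPA8, EXPA10 and EXPA11 the means of both kinds of line differed by 0.11 or less. Of these, EXPA8, EXPA10 and EXPA11 were higher in Tnz-1 than in Ws-2 in both conditions, and EXPA4 only in the dark. Some neighbours lay far off, up to 510 kb from EXPA11.

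Each parent gave 1 library per condition, so the parents are described without a test. EXPA10 had 639 TPM in light and 89.9 TPM in the dark in Tnz-1, and 430.4 TPM in light and 27.6 TPM in the dark in Ws-2. It was thus higher in light in both parents, and the dark value of Tnz-1 lay above all 65 dark RIL libraries. EXPA3 had 293 TPM in light and 185 TPM in the dark in Tnz-1, both above every RIL library of the condition, and 122 TPM in light and 43.0 TPM in the dark in Ws-2. EXPA15 had 12.9 TPM in light and 9.76 TPM in the dark in Tnz-1, and 38.7 TPM in light, above every light RIL library, and 11.7 TPM in the dark in Ws-2.

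EXPA1 and EXPA4 were higher in light in both parents, and EXPA8 was lower in light in both. The parents moved in opposite directions in 4 members, and the share of all genes tested that did so was not computed. EXPA5 had 32.7 TPM in light and 49.6 TPM in the dark in Tnz-1, where the dark value lay above every dark RIL library, and 8.57 TPM in light and 5.75 TPM in the dark in Ws-2. EXPA11 had 28.7 TPM in light and 25.4 TPM in the dark in Tnz-1, and 11.7 TPM in light and 20.3 TPM in the dark in Ws-2. EXPA9 had 6.87 TPM in light and 7.68 TPM in the dark in Tnz-1, and 9.33 TPM in light and 7.14 TPM in the dark in Ws-2. The remaining one, EXPA6, is given above. All other parental values of the 10 members lay inside the range of the RIL libraries.

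Over the 65 lines, the light changes of the members were compared in pairs, which share the libraries of each line and are given as a description. Pearson's r of the change was positive in 40 of 45 pairs (88.9%), beside 60.6% of all pairs of genes tested, and its median was 0.327, beside 0.0474. After centring within the ranges of line numbers the median was 0.281, beside 0.0501. It was highest for EXPA1 with EXPA8 (0.657), a member that rose and one that fell, and for EXPA1 with EXPA3 (0.596). EXPA10 with its relative EXPA1 had 0.407. The line means had a median r of 0.195, beside 0.0383 over all pairs of genes tested, with 33 of 45 pairs positive (73.3%, beside 57.2%), the highest being EXPA3 with EXPA8 (0.567) and EXPA3 with EXPA5 (0.566).

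Among 14009 genes with a mean of at least 5 TPM, the light change of EXPA10 over the 65 lines was most like that of TSBtype2 (tryptophan synthase beta type 2, r = 0.779), of PHT3;1, a mitochondrial phosphate transporter (0.779), and of AT3G52990 (0.776). Of these TSBtype2 rose by 1.14 on average, while PHT3;1 and AT3G52990 changed by -0.13 and 0.00, so likeness over lines did not go with a like mean change. EXPA15 was most like GH9C2, a glycosyl hydrolase of a family of endoglucanases (0.622), AT1G78060 (0.563) and AT5G45670 (0.550). EXPA3 was most like GASA4, a gibberellin-regulated gene (0.699), DGR2 (0.643) and AUX1, an auxin influx carrier (0.630). By line mean, EXPA6 was most like PK1B (AT2G28930), whose start is 7.04 kb away (0.989), AT2G28720 (0.975) and AT2G28940 (0.966), all on chromosome 2. EXPA1 was most like BIM2, a partner of brassinosteroid-pathway transcription factors on the same chromosome (0.738), ATRPAC42 (0.723) and AT1G69760, 97.5 kb away (0.721). All r values of this paragraph share the libraries of each line and were not centred within the ranges of line numbers. The part of the ranges in them was not tested.

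The other expansin genes went both ways, as did the genes tested as a whole, of which 36.1% rose and 25.5% fell. Of 24 further genes, 11 were tested, and 2 of these rose, 4 fell and 5 did not pass, with a median change of -0.23. EXPB3, a beta-expansin, rose by 2.32 to a median of 40.4 TPM in light, against 6.53 TPM in the dark. EXLA1 and EXLA2, of the expansin-like A family, fell by 2.17 and by 1.58. EXLA1 had a median of 9.79 TPM in light and 44.3 TPM in the dark, and EXLA2 of 3.55 TPM in light and 12.3 TPM in the dark, each lower in light in 65 of 65 lines. Of these 11 genes, 6 were alpha-expansins outside the 10, and they went both ways too. EXPA20 rose by 0.42, with a median of 9.71 TPM in light and 7.02 TPM in the dark. EXPA2, known from germinating seeds, fell by 0.42, with a median of 2.65 TPM in light and 3.27 TPM in the dark, and EXPA14 fell by 0.37, with 1.42 TPM in light and 2.11 TPM in the dark. EXPA13 had a change of 0.05 that did not pass (adjusted p 0.447, limma). EXPA7 and EXPA18, known for root hairs, had changes of -0.23 and -0.24 that did not pass (adjusted p 0.130 and 0.221, limma).

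Xyloglucan endotransglucosylase/hydrolases (XTHs) cut and rejoin the xyloglucan that tethers cellulose. Of the 22 XTH genes listed, all tested, 3 rose, 15 fell and 4 did not pass, where 36.1% of all genes tested rose and 25.5% fell. The list does not hold the whole family and, like the 10 alpha-expansins, was chosen with earlier results of these data known. The median change of the XTH genes was -1.15, beside 0.77 for the 10 alpha-expansins and 0.05 for all genes tested. XTH22, a touch-induced gene, fell by 4.37, with a median of 26.1 TPM in light and 626 TPM in the dark, and XTH6 fell by 3.95, with 20.5 TPM in light and 362 TPM in the dark. XTH31 and XTH32 rose by 2.42 and 2.24, to medians of 7.22 and 62.2 TPM in light, against 0.59 and 11.02 TPM in the dark.

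Expansins act at acidic pH, which proton pumps of the plasma membrane create, kept active by SAUR proteins and switched off by PP2C.D phosphatases. Of 12 such genes, 1 rose, 8 fell and 3 did not pass, where 36.1% of all genes tested rose and 25.5% fell. The median change of the 12 was -0.57. The list joins genes of opposite roles, and both kinds were among those that fell: 5 of 6 SAUR genes and 2 of 4 PP2C.D genes. Of these SAUR genes, SAUR24 had a median of 0 TPM in light and in the dark, with 16 lines lower and 7 higher in light. SAUR19 had a median of 0.26 TPM in light and 2.35 TPM in the dark. The proton pump gene AHA1 rose by 0.33, and its relative AHA2 fell by 0.27. SAUR21 and SAUR22 were the SAUR genes with the largest changes, and fell by 1.37 and 1.32. SAUR21 had a median of 3.63 TPM in light and 11.63 TPM in the dark, and SAUR22 of 0.36 TPM in light and 3.25 TPM in the dark. The PP2C.D genes that fell were AT3G17090, by 0.82 and in 65 of 65 lines, and AT5G02760, by 0.56. The SAUR genes of this list are close copies of each other, so the split of reads between them is uncertain.

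**Figure D5:**
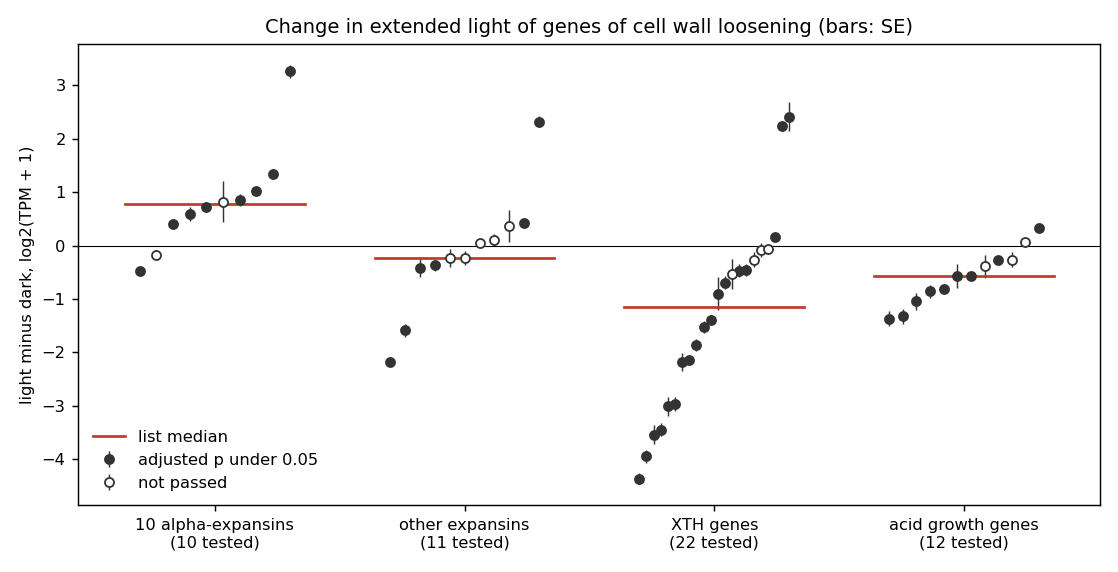
Light minus dark change on the log2(TPM + 1) scale (limma estimate, whiskers SE, 65 libraries per condition) of the tested genes of 4 lists, with the list median in red. The 10 alpha-expansins have a median of 0.77, the 11 other expansins of -0.23, the 22 XTH genes of -1.15 and the 12 acid growth genes of -0.57. The lists were chosen with earlier results of these data known.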

How the data were processed

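The authors deposited 1 table of TPM, an abundance scaled by transcript length and library total, for 28775 genes in 134 libraries. Per the labels' protocols, total RNA of whole seedlings was treated with DNase and made into directional poly(A) libraries (NEBNext Ultra II). The submitters' processing notes name cutadapt 3.4, Salmon 1.6.0, GATK and the build TAIR10 without their roles. The annotation and the step to gene level are not given in the sources used here. Each TPM column summed to between 999998.6 and 1000000.9, so depth is unknown and no counting interval is given. A value of 0 is a value listed at 0.

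Groups came from the labels, and RIL libraries of the same line number were read as the same inbred line. The deviations of a line's libraries from the group means correlated over genes with r from 0.492 to 0.886, above 0.1 in 65 of 65 lines. In 61 lines the best match of the light library was its own dark library, and in 3 of the other 4 it was that of a near-identical line. Nothing says that libraries came from separate cultures, so p-values measure the spread between these libraries, which may be technical in part.

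Values were analysed as log2(TPM + 1), which understates changes of low genes, for 18111 genes with a mean of at least 1 TPM over the 130 RIL libraries. The light effect used limma 3.58.1 (R 4.3.3) with treatment as the only term and a mean-variance trend in the moderation, with Benjamini-Hochberg adjustment over all genes tested and thresholds of adjusted p 0.05 and absolute log2 change 1. The line effect was a moderated F-test with treatment in the model, and the spread was fitted on absolute deviations from the group median. Correlations used two-sided permutation tests of 100000 resamples. With 1 library per line and condition, a difference between lines in their light effect could not be tested. The light, line and spread fits and the permutation test were tried on simulated data with known answers. The interaction fit and the other steps were not. Alternatives were the line as a block, a pseudocount of 0.1, no filter, median-of-ratios scaling over 15318 genes, the 4 ranges of line numbers, leaving out 1 line of each of 9 pairs that agreed at 97% or more of up to 737 expression markers (56 lines left), and a threshold of 0.5.

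Sequences and coordinates came from RefSeq's TAIR10.1 with Biopython 1.88. Coding identity was counted over aligned bases of global alignments, and 26709 upstream windows of 250 bases gave the motif shares. The members and the gene lists were chosen with earlier results of these data known. Named besides the members were other expansins past both thresholds, the 2 largest changes past both in each direction of the other lists, and the 3 most similar genes of 5 members. EXPA2, EXPA7, EXPA13, EXPA14, EXPA18, EXPA20, AHA1, AHA2, SAUR19, SAUR24, AT3G17090 and AT5G02760 were named after their values were seen.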

Additional observations from a re-analysis of the deposited data

Results flagged for a closer look

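The light effect of 2 members differed between the ranges of line numbers by a test of the difference itself (limma, interaction of light and range). For EXPA5 the adjusted p was 2.92e-08, with mean log2 changes of 1.69, 0.27, -0.58 and 0.92 in the 4 ranges, and with 17 of 17, 13 of 16, 4 of 16 and 16 of 16 lines higher in light. For EXPA10 the adjusted p was 0.0181, with changes of 3.78, 2.79, 2.77 and 3.69, all positive. What the ranges of numbers stand for is not stated, and their part in these results was not tested.

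The parents moved in opposite directions in 4 members, each from 1 library per parent and condition, so that the difference was not tested. The share of all genes tested that did so was not computed, so the count is not a trait of the members. The change of Tnz-1 minus the change of Ws-2 on the log2 scale was -1.09 for EXPA5, -1.22 for EXPA6, -0.49 for EXPA9 and 0.91 for EXPA11. For EXPA6 the Tnz-1 values were 0 TPM in light and 0.28 TPM in the dark, so its direction there rests on a value near 0.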

How the results depend on the processing

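The members called at an adjusted p under 0.05 for light numbered 8 in the fit reported. They numbered 4 in lines 40 to 57 fitted alone. Members past both thresholds numbered 5 in lines 1 to 19, against 3 in all lines. Genes past both thresholds numbered 1375 in lines 1 to 19, against 993 in all lines. A threshold of 0.5 gave 6 members and 3375 genes, against 993 genes at 1. Genes at an adjusted p under 0.05 numbered 7044, 5871 and 6862 in lines 21 to 39, 40 to 57 and 58 to 78, with fewer libraries each, against 11148. The light change of EXPA5 reversed to -0.58 in lines 40 to 57. Genes with a different spread numbered 1262 with the replicate block, 525 without a filter and 124 within line ranges, against 324. With the replicate block the light effect differed between ranges in 6 members and 4698 genes, against 2 members and 965 genes.

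The block changed the light call of EXPA6 and EXPA9 and no other call of a member on light, and none on spread. The values of EXPA10 near 0 changed sign: its ICC was 0.0974 within line ranges and 0.0215 without near-identical lines, and its r was 0.103, 0.0224 and, without the 2 farthest lines, 0.0902. The spread difference of EXPA15 was -6.04e-06 with a pseudocount of 0.1, against 0.03. None of these passed, and the cause was not tested. Of the remaining values of single members under an alternative, 229 kept their direction and side of the threshold, 8 correlations without the 2 farthest lines, for which no p was computed, kept their direction, 6 came to pass and 5 no longer passed. Unknown depth limits the low values.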

Other observations

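Among the 9 pairs of lines that were near-identical at the expression markers, the line means of the members differed by less than between other pairs of lines in 9 of 10 members, by the median absolute difference. The pairs were chosen from expression in these same libraries, so this is a description. The share of all genes tested that behaved so was not computed, and the count is not a trait of the members. EXPA6, counted among the 9 members, meets the rule for a marker itself, so its smaller difference follows from the choice of pairs. The median absolute difference was 0.12 for EXPA11 in the 9 near-identical pairs and 0.30 in the 2071 other pairs, and 0.17 and 0.35 for EXPA8. EXPA1 was the exception, with 0.59 in the near-identical pairs and 0.56 in the other pairs.

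Line 48 and line 58 agreed at every one of 736 markers. Over all genes tested, the deviations of the light library of line 48 correlated with the dark library of line 58 at r = 0.840 and with its own dark library at r = 0.700. For EXPA10 the light and dark values of line 48 were 94.6 and 76.4 TPM.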
